A study of Homo sapiens with 6 samples.

Results

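The genes described here are those of the endothelin system, comprising the ligand genes EDN1, EDN2 and EDN3, the receptor genes EDNRA and EDNRB, and the converting enzyme genes ECE1 and ECE2. They were taken by name from the count table of a HepG2 RNA-Seq experiment, in which they are 7 of 20422 genes. The 7 genes were chosen by name when their values in NC and ORF_Flag were already known, the higher level of EDN1 in ORF_Flag among them. The comparison of these genes between the groups is therefore given as a description, without a test.

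HepG2 is a human cell line established from a liver cancer. The control group, NC, consisted of 3 libraries from cells carrying the vector, and the ORF_Flag group of 3 libraries from cells overexpressing APPLE, a microprotein encoded by the lncRNA ASH1L-AS1, with a Flag tag. The sample labels describe transfection with plasmids, whereas the methods of the study describe stable lines made by lentiviral infection and puromycin selection, with the 5'-UTR of the lncRNA in the construct, so the way of delivery is not settled by these sources. Neither source says whether the replicates of a group were separate cultures, and the p-values below measure only the spread between these libraries, which may be technical. The NC libraries held 20081203, 24907524 and 30088457 counts and the ORF_Flag libraries 26866148, 17494668 and 27015836, where values of 3 libraries are always given in the order of replicates 1, 2 and 3. Levels are given as CPM, counts scaled to 1000000 per library. At these depths 3 counts, used below as the limit that a count of 0 allows, correspond to between 0.0997 and 0.171 CPM in a library, which covers counting error only.

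Endothelins are short, strongly vasoconstricting peptides that are cut from longer precursors, first by furin-like proteases and then by the endothelin converting enzymes at the cell surface and in vesicles. The receptors are G protein-coupled: the A type favours endothelin-1 and endothelin-2, and the B type binds all the endothelins. In the liver, endothelial and stellate cells are the best known source and target of endothelin-1, and EDN1 transcription is known to respond to AP-1, GATA, hypoxia-inducible and SMAD factors.

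The libraries had the marker genes of liver cells. Of 7 hepatocyte markers all 7 were tested, and ALB, which encodes albumin, was the most abundant, with a mean of 2080 RPKM, that is CPM per kilobase of exon, in NC and 2200 RPKM in ORF_Flag. AFP, the oncofetal protein typical of HepG2, had a mean of 224 RPKM in NC and 229 RPKM in ORF_Flag, while TTR, another hepatocyte marker, named after its values were seen, had between 116 and 169 counts in a library. FGB, named after its values were seen, was the 1 hepatocyte marker called, that is past an adjusted p of 0.05 in edgeR's quasi-likelihood test, with a log2 fold change of 0.14 (standard error, SE, 0.04; edgeR adjusted p = 0.023). That is 14.3% of these markers, against 4.45% of all 12386 genes tested. The marker lists were chosen with earlier results of these data known, so nothing is read from this share. An unadjusted p below 0.05, which 18.5% of all genes tested had, was found for 4 of the 7, with ALB, SERPINA1 and FGB higher and APOB lower (log2 fold change -0.07) in ORF_Flag, SERPINA1 and APOB also being named after their values were seen. The median log2 fold change of the 7 was 0.04, with 4 positive values. Of the markers of other cell types, 4 of 6 for stellate or smooth muscle cells and 2 of 4 for immune cells were tested, and 0 were called by edgeR, DESeq2 or limma, with 0 at an unadjusted p below 0.05. The most abundant of them were ACTA2, at 22.8 RPKM in NC and 24.0 RPKM in ORF_Flag, and CD68, at 18.0 and 17.5 RPKM, while PDGFRB, MYH11 and RGS5, the other 3 stellate or smooth muscle markers tested and named after their values were seen, were lower in ORF_Flag (log2 fold changes -0.41, -0.24 and -0.20), so that the median of the 4 with ACTA2 was -0.22. The other 3 immune markers are also named after their values were seen. CD14 had a mean of 0.621 CPM in NC and 0.823 CPM in ORF_Flag (log2 fold change 0.29), against a log2 fold change of -0.03 for CD68, with a median of 0.13, and PTPRC and CD3E had 0 counts in all 6 libraries.

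EDN1 (ENSG00000078401.7) encodes preproendothelin-1. By GENCODE v29 (GRCh38) this gene occupies the plus strand of chromosome 6 from 12290363 to 12297194, has 5 exons with a total of 2033 bases, and shares no exon base with another gene. Its transcript consists of 267 bases of 5'-UTR, 636 coding bases before the stop codon and 1127 bases of 3'-UTR. The study lists a pair of qPCR primers for this gene, which are shown because they mark a stretch of the measured transcript that another assay can address. It also reports, from a heatmap and qPCR, markedly higher levels of MAPK pathway genes with APPLE overexpression. Its text does not say whether EDN1 was among the genes measured by qPCR.
EDN1 forward primer: cgttaaaagggcacttgggc
EDN1 reverse primer: gcgcctaagactgctgtttc
The forward primer matches bases 130 to 149 of the transcript, in the 5'-UTR in exon 1 (chromosome 6, 12290492 to 12290511). The reverse primer is complementary to bases 325 to 344, in the coding sequence, and spans the junction of exons 1 and 2 (chromosome 6, 12290687 to 12292353, the intron included), for an amplicon of 215 bases.

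The promoter table from RefSeq on GRCh38.p14 held 11 promoters for 5 of the 7 genes, namely EDN1, EDN2, EDNRA, EDNRB and ECE1. EDN1 had 3 of them, and the one nearest to the start of the transcript above is shown, which is also the one with the most motif matches. It covers the 250 bases before the start site, chr6:12290111-12290360 on the plus strand, and the capitals mark motif matches.
EDN1 promoter: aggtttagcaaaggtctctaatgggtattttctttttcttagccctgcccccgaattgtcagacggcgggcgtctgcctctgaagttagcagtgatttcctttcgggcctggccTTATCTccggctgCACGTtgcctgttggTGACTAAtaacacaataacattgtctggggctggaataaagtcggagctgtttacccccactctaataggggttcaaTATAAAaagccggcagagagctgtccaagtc
The search used 6 motifs on both strands: TGANTCA and TGACTAA for AP-1, GGAATG for TEAD factors, AGATAA for GATA factors, ACGTG for hypoxia-inducible factors and TATAAA for the TATA box. This promoter held 4 of the 6, and the matches do not overlap each other. TGACTAA lies 108 to 102 bases before the start site and TATAAA 31 to 26 bases before it, both on the plus strand. AGATAA lies 136 to 131 bases and ACGTG 123 to 119 bases before the start site, both on the minus strand. Over the same 250 bases of 35116 promoters, TGACTAA was found in 1.62%, AGATAA in 9.17%, ACGTG in 18.5% and TATAAA in 10.7%, while TGANTCA and GGAATG, which are not in this window, were found in 6.57% and 11.9%. Of the other EDN1 promoters, the one starting at 12288019 held only ACGTG and the one at 12290014 only GGAATG. The EDNRB promoters held ACGTG, at 77919682, and ACGTG with GGAATG, at 77918831, and the EDN2 promoter held GGAATG. The EDNRA promoter and the 4 ECE1 promoters held none of the 6 motifs, which says only that these letters are not in those windows.

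EDN1 was the ligand gene that was expressed, and its level was higher in ORF_Flag than in NC. It had 512, 712 and 767 counts in NC and 1020, 646 and 968 counts in ORF_Flag. Scaled to a common library total with TMM factors, the level of EDN1 was 25.3, 28.5 and 25.6 CPM in the NC libraries and 38.0, 37.1 and 35.8 CPM in the ORF_Flag libraries. The 3 ORF_Flag libraries all lay above the 3 NC libraries, and the highest NC library, replicate 2, stood further from the other NC libraries than the ORF_Flag libraries stood from each other. Means were 26.5 ± 1.76 CPM for NC and 37.0 ± 1.07 CPM for ORF_Flag (SD, n = 3 each), and the log2 fold change was 0.48 with a standard error of 0.06, or 1.4-fold. The size of this difference exceeded that of 96.9% of the 12386 genes tested, whose median absolute log2 fold change was 0.07. In libraries from bulk cells, a difference in the number of cells that express a gene and a difference in its RNA per cell cannot be told apart.

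The coefficient of variation of EDN1 between libraries was 6.63% in NC and 2.9% in ORF_Flag, and counting error at the mean number of counts would give 3.88% and 3.37%.

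**Figure D1:**
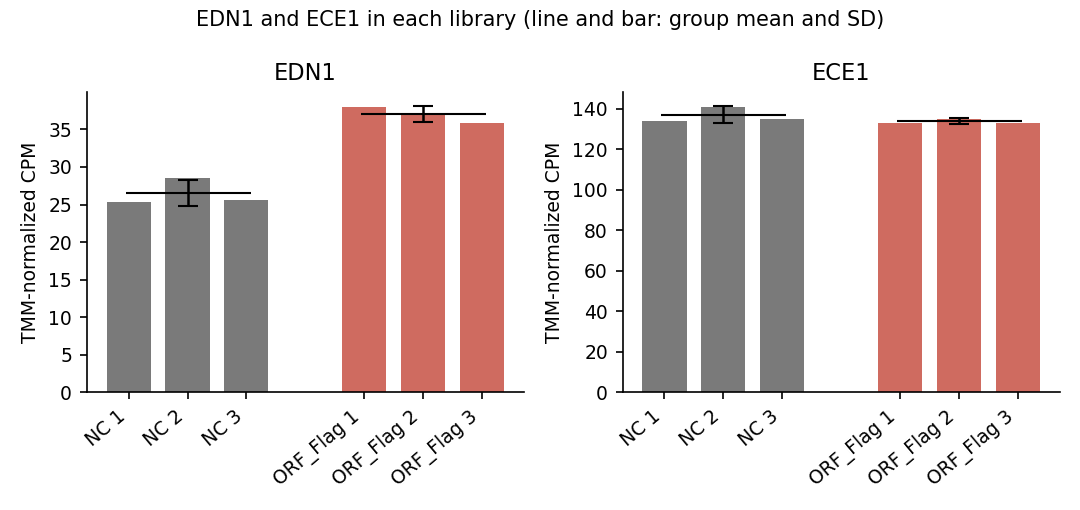
Bars show the TMM-normalized CPM of EDN1 (left) and ECE1 (right) in each of 6 libraries, with NC in grey and ORF_Flag in red; horizontal lines are group means and error bars the SD (n = 3). EDN1 lies at 25.3 to 28.5 CPM in NC and at 35.8 to 38.0 CPM in ORF_Flag, while the ECE1 bars of both groups lie between 133 and 141 CPM.

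Markers of endothelial cells, in which EDN1 is best known, were given beside this difference because their summed level also differed between the groups. Of 7 endothelial markers, 1 passed the filter on low counts and 0 were called by edgeR, DESeq2 or limma, with 1 at an unadjusted p below 0.05, which 18.5% of all genes tested had. The summed level of the 7 was 4.85, 4.28 and 5.14 CPM in NC and 6.63, 5.63 and 6.33 CPM in ORF_Flag. The groups thus did not overlap, which held for 22.4% of the single genes tested. As the list is shown because of this sum, nothing is read from it. Most of the sum came from PECAM1, the only marker tested, with 0.561 RPKM in NC and 0.734 RPKM in ORF_Flag (log2 fold change 0.39, standard error 0.13, edgeR adjusted p = 0.096). The other 6 are named after their values were seen: TEK, KDR and ERG had 0 counts in all 6 libraries, CDH5 had 0 or 1 count in each, CLDN5 between 2 and 4, and VWF between 4 and 13. The mean of CLDN5 was lower in ORF_Flag (0.118 CPM in NC, 0.0878 CPM in ORF_Flag). That of VWF was higher (0.259 and 0.386 CPM), and that of CDH5 was 0.0245 and 0.0248 CPM. The level of EDN1 per exon length, a mean of 13.0 RPKM in NC, was above that of each of these markers.

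EDN2 and EDN3, the genes of the other endothelins, were at or near 0 in HepG2. EDN2 (chromosome 1, 41478775 to 41484673, minus strand) had 2 counts in ORF_Flag replicate 1, or 0.0745 CPM, and 0 counts in the other 5 libraries. EDN3 (chromosome 20, 59300427 to 59325992, plus strand) had 0 counts in all 6 libraries. Over the 3 NC libraries together, a count of 0 allows up to 0.0244 RPKM for EDN2 and 0.0146 RPKM for EDN3. In ORF_Flag the mean of EDN2 was 0.0151 RPKM, from its 2 counts, and the 0 of EDN3 allows up to 0.0154 RPKM. A difference between the groups was not detectable for either gene at this depth.

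The receptor genes were likewise near 0. EDNRA (chromosome 4, 147480917 to 147544954, plus strand), the gene of the A receptor, had 2 counts in ORF_Flag replicate 1 and 0 in the other 5 libraries. EDNRB (chromosome 13, 77895481 to 77975529, minus strand), the gene of the B receptor, had 1 count in ORF_Flag replicate 3 and 0 in the other 5 libraries. Over the 3 NC libraries together, a count of 0 allows up to 0.00943 RPKM for EDNRA and 0.00713 RPKM for EDNRB. In ORF_Flag, EDNRA stood at 0.0176 RPKM in replicate 1 and EDNRB at 0.0066 RPKM in replicate 3, each below the level of 3 counts in that library. The level of EDN1 in every library was at least 12.5 RPKM.

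ECE1, the main endothelin converting enzyme, was expressed at a like level in both groups. The gene (ENSG00000117298.16) lies on the minus strand of chromosome 1 from 21217247 to 21345572, with 25 exon blocks of 7333 bases in total. An antisense gene, AL031728.1, shares 240 of those bases, or 3.27%, and as the strand setting of the counting is not given in the sources used here, reads of the overlap cannot be assigned to a strand. The counts of ECE1 were 2705, 3534 and 4032 in NC and 3564, 2358 and 3585 in ORF_Flag. Its level was 134, 141 and 135 CPM in the NC libraries and 133, 135 and 133 CPM in the ORF_Flag libraries. The groups overlapped, with NC replicate 2 the highest library for ECE1 as it was the highest NC library for EDN1. Means were 137 ± 4.2 CPM for NC and 134 ± 1.56 CPM for ORF_Flag (SD, n = 3 each), and the log2 fold change was -0.03 with a standard error of 0.04. The size of this difference exceeded that of 25.5% of the genes tested.

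ECE2, the gene of the other converting enzyme (chromosome 3, 184276011 to 184293031, plus strand), had 0 counts in all 6 libraries. This 0 is uncertain, since 62.7% of its exon bases, 2965 in all, also belong to the readthrough gene EEF1AKMT4-ECE2 on the same strand, which had 0 counts in all 6 libraries as well. EEF1AKMT4, the upstream gene of that readthrough, named after its values were seen, had between 64 and 133 counts in a library. How reads shared between genes were handled is not given in the sources used here.

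**Figure D2:**
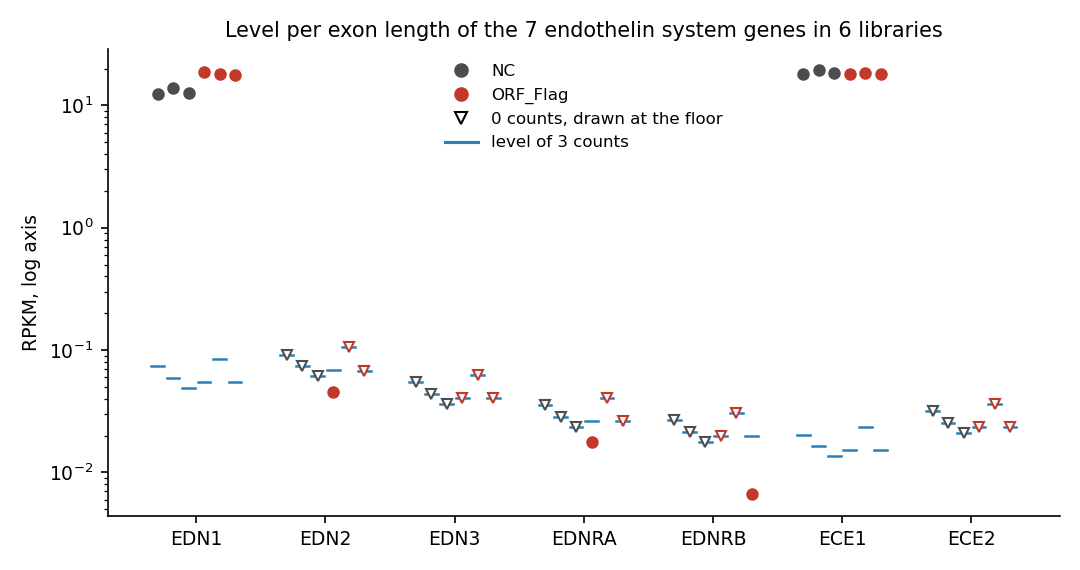
The vertical axis gives RPKM on a log scale for the 7 endothelin system genes, with a point for each of 6 libraries (NC grey, ORF_Flag red), blue dashes at the level of 3 counts in that library, and open triangles at that level where the count was 0. EDN1 and ECE1 lie between 12.5 and 19.3 RPKM, and the other 5 genes have only open triangles or points below the dashes.

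Of the 7 genes, 2 passed the filter on low counts, EDN1 and ECE1. Of these 2, EDN1 was the 1 whose groups did not overlap, which held for 22.4% of the genes tested. As these genes were chosen with the same contrast known, nothing is read from this count.

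Per exon length, ECE1 and EDN1 were of the same order. The mean level of ECE1 was 18.6 ± 0.573 RPKM in NC and 18.2 ± 0.212 RPKM in ORF_Flag, and that of EDN1 was 13.0 ± 0.864 RPKM in NC and 18.2 ± 0.528 RPKM in ORF_Flag (SD, n = 3 each). In NC, ECE1 exceeded 82.8% and EDN1 75.9% of the genes tested, and in ORF_Flag they exceeded 82.5% and 82.4%. The level of EDN1 was 68.3%, 72.7% and 68.6% of that of ECE1 in NC and 103%, 98.8% and 97.4% in ORF_Flag. The levels of the genes were thus apart in the NC libraries and did not differ beyond their spread in the ORF_Flag libraries. The ratio of EDN1 to ECE1, and their near equality in ORF_Flag, depend on the length assigned to ECE1. With the longest protein-coding transcript of ECE1, 5099 bases, in place of all its exons, a setting chosen after seeing the data, EDN1 stood at 48.6% ± 1.7 of ECE1 in NC and at 69.4% ± 2.12 in ORF_Flag (SD, n = 3 each), in place of 69.9% ± 2.45 and 99.8% ± 3.04.

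The transcripts of EDN1 and ECE1 also differ in the motif ATTTA, the core of AU-rich elements, which are known to shorten the life of an mRNA. The EDN1 transcript holds 6 copies, 4 of them after the coding sequence, or 2.95 per kilobase, which is more than in 91.6% of 12303 tested genes (longest protein-coding transcript of each). The longest ECE1 transcript holds 3 copies, or 0.588 per kilobase, more than in 36.2% of those genes, and the median was 0.982 per kilobase. A match is a description of the sequence and not a measurement of stability.

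The nearest protein-coding gene on each side of EDN1 was not called, or was too low for a test. HIVEP1, which encodes a zinc finger protein, lies 125 kb from EDN1 on the lower-coordinate side and had 24.2, 24.8 and 22.7 CPM in NC and 24.4, 27.1 and 27.6 CPM in ORF_Flag. Its groups overlapped, and its log2 fold change of 0.14 (SE 0.07) was not called (edgeR adjusted p = 0.25). PHACTR1, 420 kb away on the other side, had between 3 and 10 counts in a library and was not tested. A test of the difference between EDN1 and its neighbours was not made, since EDN1 was chosen on this contrast.

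Genes of the same families stand next to other endothelin genes, and these were also low. HIVEP3, 21.7 kb from EDN2, had between 0 and 3 counts in a library, and PHACTR3, 252 kb from EDN3, had at most 1. On their other sides, FOXO6 next to EDN2 had at most 1 count and ZNF831 next to EDN3 had 0 in all 6 libraries. The neighbours of the receptor genes were mixed. TTC29, 535 kb from EDNRA, had at most 1 count, whereas TMEM184C, 72.4 kb away on the other side, had a mean of 6.76 RPKM in NC. SLAIN1, 131 kb from EDNRB, and POU4F1, 623 kb from it, had means of 0.465 and 1.02 RPKM in NC. Thus both neighbours of EDNRB had counts in every library, at levels below that of TMEM184C. ECE1 lies between EIF4G3 (log2 fold change 0.07, edgeR adjusted p = 0.33) and NBPF3 (-0.20, edgeR adjusted p = 0.35), neither of which was called. ECE2 lies between CAMK2N2, with 0.379 RPKM in NC, and PSMD2, a proteasome subunit gene with 69.9 RPKM in NC.

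To find the genes whose pattern was most like that of EDN1, the log2 CPM of each tested gene was centred on its own mean over the 6 libraries, and the root mean square difference from EDN1 was taken. EDN1 itself stood at -0.30, -0.13 and -0.29 in NC and at 0.28, 0.25 and 0.20 in ORF_Flag. The 5 nearest genes were TCIM, at a difference of 0.0461, CCN2 at 0.0496, C1orf116 at 0.0581, HIVEP2 at 0.0589 and TNS4 at 0.0666. CCN2, a secreted matricellular protein gene, went from 61.4, 69.1 and 61.0 CPM in the NC libraries to 91.9, 94.6 and 93.9 CPM in the ORF_Flag libraries. TCIM had 13.0, 15.9 and 13.9 CPM in NC and 19.6, 19.0 and 18.8 CPM in ORF_Flag. In each of the 5, NC replicate 2 was the highest NC library and all ORF_Flag libraries were above the NC libraries, as in EDN1. This likeness rests on 6 libraries and mostly on the step between the groups, by which EDN1 was selected, so it is given without a test.

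For ECE1 the same measure named MINPP1 at 0.00786, UBP1 at 0.00817, UBE4B at 0.00847, NCSTN at 0.00975 and LAMB1 at 0.00977. The log2 fold changes of these 5 genes lay between -0.04 and -0.02, and none of them was called by edgeR. Their differences from ECE1 are smaller than those of the EDN1 set, and both they and ECE1 varied little over the 6 libraries.

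**Figure D3:**
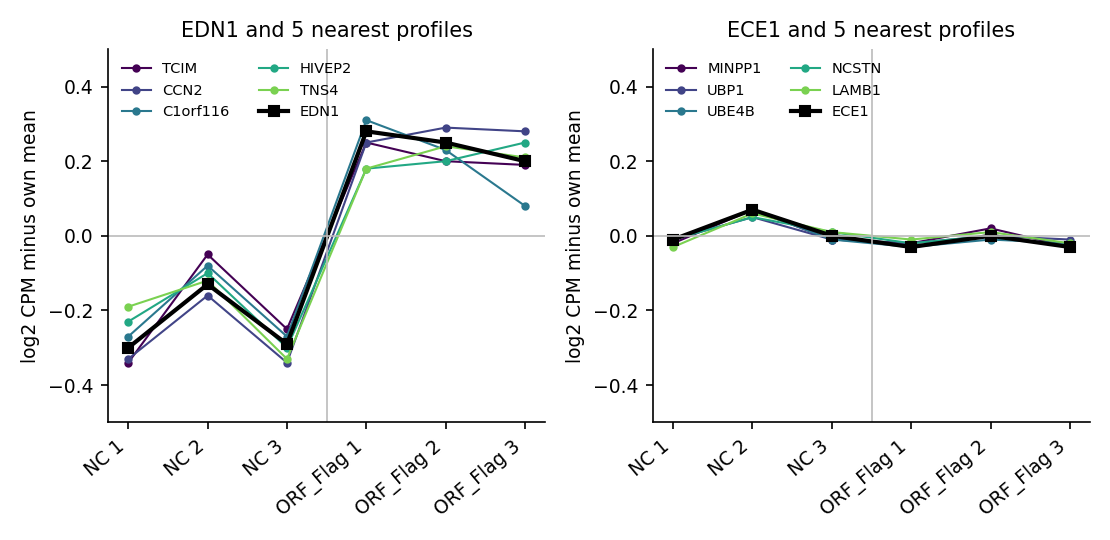
The vertical axis is log2 CPM minus each gene's own mean over 6 libraries, for EDN1 with its 5 nearest genes (left) and ECE1 with its 5 nearest genes (right); lines join the values of a gene and imply no order of libraries. EDN1 steps from between -0.30 and -0.13 in NC to between 0.20 and 0.28 in ORF_Flag, and the ECE1 set stays near 0 in both groups.

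Around the endothelin genes, 4 lists of pathway genes, 120 genes in all, were described with the fit across all genes. The lists were chosen with earlier results of these data known, so nothing is read from the shares called, here or below. Of these, 77 were tested, 5 were called higher in ORF_Flag (6.49%, against 2.47% of all genes tested) and 1 lower (1.3%, against 1.98%). The 5 include FOSB, which passed the filter on low counts only through ORF_Flag. With at least 10 counts in every library 4 were called higher. Without NC replicate 2 or without ORF_Flag replicate 3 the number called higher was 2, and DESeq2 called 3 higher. The median log2 fold change of the 77 was 0.02, and that of all genes tested was 0.00.

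Of the 14 genes of enzymes that act on the endothelin precursor or clear the peptide, 7 were tested and the other 7 were too low, with at most 5 counts in a library. Of those tested, 0 were called by edgeR, DESeq2 or limma, and the median log2 fold change was -0.03. The number with an unadjusted p below 0.05 was 3, against 18.5% of all genes tested: FURIN, which makes the first cut of the precursor, PCSK5, a related convertase, and MMEL1, a relative of neprilysin, all named after their values were seen. The mean level of FURIN was 129 ± 5.09 CPM for NC and 136 ± 0.701 CPM for ORF_Flag (SD, n = 3 each; log2 fold change 0.08, edgeR adjusted p = 0.22). PCSK5 went from 9.31 ± 0.723 to 10.9 ± 0.476 CPM (log2 fold change 0.23, edgeR adjusted p = 0.18) and MMEL1, in the other direction, from 7.12 ± 1.23 to 5.58 ± 0.365 CPM (-0.34, edgeR adjusted p = 0.15). The most abundant gene of the list was CTSA, cathepsin A, at 77.9 RPKM in NC and 75.9 RPKM in ORF_Flag, with 21.1% of its exon bases shared with a gene on the opposite strand. MME, the gene of neprilysin, which degrades endothelins and is named after its values were seen, had 1 count in NC replicate 3 and 0 counts in the other 5 libraries.

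Genes of receptor coupling, such as G protein subunits and phospholipase C, were present, whereas the receptors were below 3 counts. Of 30 genes 27 were tested. The median log2 fold change was 0.01, 0 genes were called higher (against 2.47% of all genes tested) and 1 lower (against 1.98%), and 4 had an unadjusted p below 0.05 (against 18.5%). The share called in either direction, 3.7%, was no more than that of all genes, 4.45%. The gene called lower was PLCB3, a phospholipase C that acts downstream of Gq, with 34.1, 32.0 and 32.2 CPM in NC and 26.1, 29.1 and 25.8 CPM in ORF_Flag. All 3 ORF_Flag libraries lay below the NC libraries, with a log2 fold change of -0.28 (SE 0.06; edgeR adjusted p = 0.008). The call was lost without ORF_Flag replicate 3, where the edgeR adjusted p was 0.074.

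Of the factors linked to EDN1 transcription, 4 of 7 AP-1 genes were called, against 4.45% of all genes tested, and no other gene was. The 4 include FOSB, which passed the filter on low counts only through ORF_Flag, so nothing is read from this count. Without ORF_Flag replicate 3 only FOSL1 of these 4 was called. The AP-1 genes are a subgroup of the list and were not tested as a group. The list held 32 genes, of which 31 were tested, 4 were called higher (12.9%, against 2.47% of all genes tested) and 0 lower (against 1.98%). This share counts FOSB, which passed the filter on low counts only through ORF_Flag, so nothing is read from it. The median log2 fold change was 0.05, with 20 of 31 values positive where 49.5% of all genes tested were positive. An unadjusted p below 0.05 was reached by 9 genes of the list, against 18.5% of all genes tested, and DESeq2 called 2 of them and limma 4. HIF1A, the most abundant, had 59.0 RPKM in NC and 61.2 RPKM in ORF_Flag and was not called. FOSL1 had 11.6, 9.41 and 12.2 CPM in NC and 15.0, 16.2 and 16.0 CPM in ORF_Flag, a log2 fold change of 0.50 (SE 0.09; edgeR adjusted p = 0.0014). Its call held with each library left out and under each other setting, at an adjusted p of at most 0.02 in edgeR, DESeq2 or limma. FOSB was close to the limit of detection, with 3, 4 and 5 counts in the NC libraries and 12, 12 and 25 counts in the ORF_Flag libraries. It passed the filter on low counts only through the ORF_Flag libraries, so its test depends on the contrast and is only descriptive. Its fitted log2 fold change was 2.07 (SE 0.48; edgeR adjusted p = 0.013), and the call was lost without NC replicate 2 (edgeR adjusted p = 0.053) or ORF_Flag replicate 3 (edgeR adjusted p = 0.15). DESeq2 gave FOSB no adjusted p and so did not call it, and the filter of at least 10 counts in every library left it out.

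The log2 fold changes of JUNB and JUN were below that of FOSL1, and the difference between these genes was not tested. JUNB had 15.7, 14.5 and 13.3 CPM in NC and 16.6, 18.0 and 18.2 CPM in ORF_Flag, a log2 fold change of 0.28 (SE 0.08; edgeR adjusted p = 0.036). JUN had 60.6, 58.8 and 57.5 CPM in the NC libraries and 62.0, 67.7 and 72.1 CPM in the ORF_Flag libraries, a log2 fold change of 0.19 (SE 0.05; edgeR adjusted p = 0.03). Neither call was stable: that of JUNB was lost with DESeq2 and in 5 of 6 fits that each left out a library (all but the fit without NC replicate 1), and that of JUN without NC replicate 2, ORF_Flag replicate 2 or ORF_Flag replicate 3, with adjusted p-values of up to 0.18 and 0.25 in edgeR. The other 3 AP-1 genes, named after their values were seen, were not called and their groups overlapped: FOS (log2 fold change 0.59, edgeR adjusted p = 0.33), FOSL2 (0.11, edgeR adjusted p = 0.60) and JUND (-0.07, edgeR adjusted p = 0.67). JUND, at 39.1 RPKM in NC and 37.0 RPKM in ORF_Flag, was the second of the list in level after HIF1A. JUNB shares 14.2% of its exon bases with a gene on the opposite strand. The EDN1 promoter printed above holds the AP-1 letters TGACTAA, and whether any of these factors acts there was not tested.

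The list of other vasoactive systems was mostly silent in HepG2. Of 44 genes 18 had 0 counts in all 6 libraries and 12 were tested, and AGT, which encodes angiotensinogen, a liver product, was the most abundant at 241 RPKM in both groups. The median log2 fold change was 0.24, and 9 of 12 values were positive (49.5% of all genes tested). An unadjusted p below 0.05 was found for 2 of the 12, against 18.5% of all genes tested. Of the 12, 0 were called lower and 1 gene was called higher (8.33%, against 2.47%). This was NOS3, endothelial nitric oxide synthase, with 16.6, 16.6 and 14.1 CPM in NC and between 19.3 and 21.0 CPM in ORF_Flag. All 3 ORF_Flag libraries lay above the NC libraries, with a log2 fold change of 0.35 (SE 0.08; edgeR adjusted p = 0.0076), and the call was kept with each library left out. NOS3 shares 13.2% of its exon bases with a gene on the opposite strand.

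**Figure D4:**
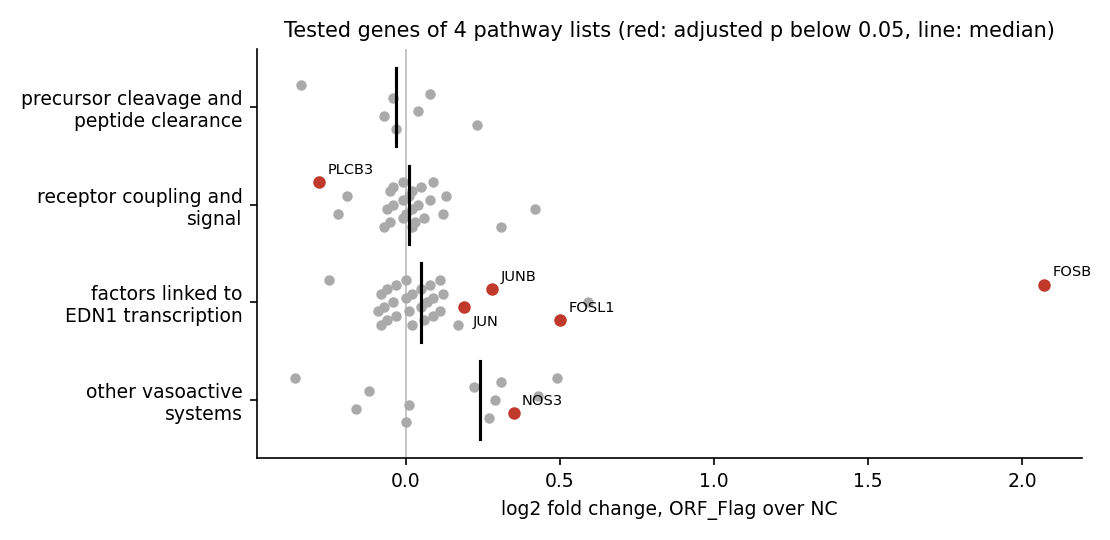
Each point is the log2 fold change (ORF_Flag over NC) of a tested gene in 4 pathway lists, with vertical jitter only to separate points, genes past an adjusted p of 0.05 in edgeR in red and the median of each list as a black line. The named red points are PLCB3 on the negative side and JUN, JUNB, FOSL1, FOSB and NOS3 on the positive side, and the medians lie at -0.03, 0.01, 0.05 and 0.24.

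The log2 fold changes of EDN1 and ECE1 moved little with the processing. The log2 fold change of EDN1 was 0.48 with each other tool, scaling, filter and with the replicate block, and ranged from 0.45 to 0.54 when any single library was omitted. That of ECE1 lay between -0.05 and -0.01 over the same settings.

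**Figure D5:**
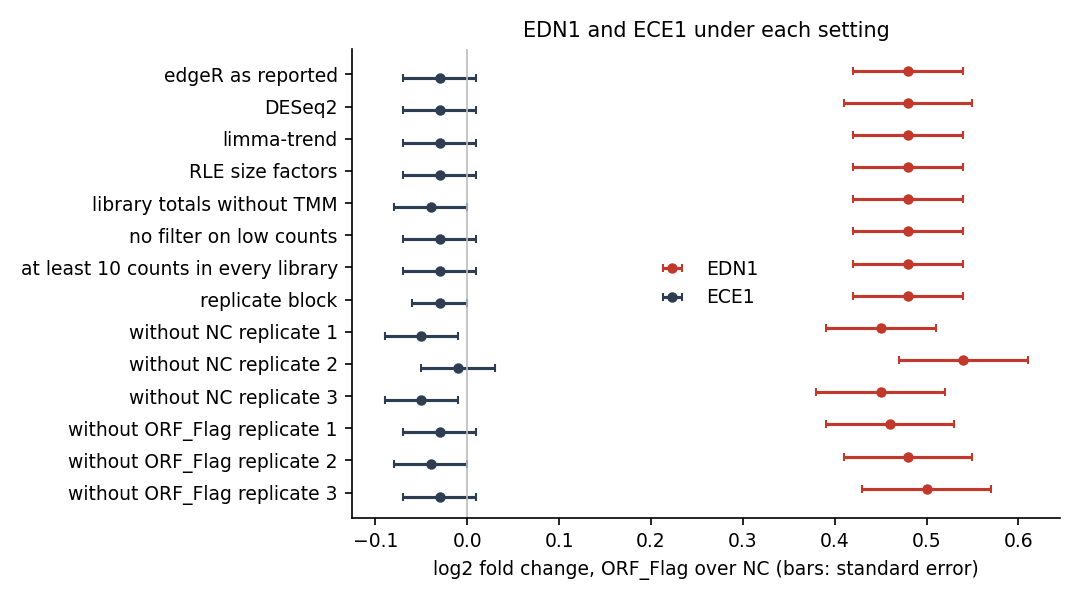
The horizontal axis gives the log2 fold change (ORF_Flag over NC) of EDN1 in red and ECE1 in blue-black under each setting listed on the vertical axis, with bars for the standard error. EDN1 lies between 0.45 and 0.54 in every setting shown, and ECE1 between -0.05 and -0.01.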

How the data were processed

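The authors deposited unnormalized read counts per gene of 6 HepG2 libraries. The libraries were made from total RNA extracted with Trizol, with a VAHTS universal V10 kit. The submitters' processing notes name cutadapt 1.11, HISAT2 2.1.0, featureCounts 1.6.0, edgeR and GRCh38; the strand setting, the annotation release and the handling of shared reads are not given in the sources used here. The table had 20422 genes, 20421 of which were matched to a symbol by Ensembl ID, and 4055 had 0 counts in all 6 libraries. Chi-square per degree of freedom between replicates was 2.39 to 5.23, so no library looked deposited again. Counts were compared in R 4.3.3 with edgeR 4.0.16 (filterByExpr, TMM factors of 0.995 to 1.01, glmQLFit, glmQLFTest, Benjamini-Hochberg adjustment over 12386 genes, threshold 0.05), after a check on simulated data. RPKM used exon lengths of GENCODE v29, matched for 20237 genes. Alternatives were DESeq2 1.42.0, limma-trend (limma 3.58.1), RLE factors, library totals, other filters, a replicate block and leaving out each library. Python 3.11.15 and matplotlib 3.10.9 made tables and figures.

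The members and the pathway and marker lists were chosen with earlier results of these data known. Genes were named by rule: the 7 members, up to 4 called rises and falls and the most abundant gene of each list, the nearest protein-coding gene on each side, and the 5 nearest profiles. Of the genes that overlap a member, AL031728.1 and EEF1AKMT4-ECE2 were described above. RNF219-AS1, on the opposite strand, shares 1.43% of the exon bases of EDNRB, and the remaining overlapping genes share no exon base. Other genes are marked as named after their values were seen. The most abundant gene of the receptor coupling list is not reported here.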

Additional observations from a re-analysis of the deposited data

How the results depend on the processing

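The log2 fold changes of EDN1 and ECE1 kept their direction under each alternative that refitted the counts. The number of genes called, 551, became 431 with DESeq2, which shared 415 of its calls, and 824 without a filter, of which 414 were lower in place of 245. When 1 library was omitted it ranged from 199 (without ORF_Flag replicate 3) to 1058 (without NC replicate 3), with 131 to 502 called higher and 68 to 556 called lower. It was 267 without NC replicate 2, 300 without ORF_Flag replicate 1 and 278 without ORF_Flag replicate 2, and the cause of this dependence was not tested. The pathway genes called higher, 5 in all, were 3 with DESeq2, 4 with at least 10 counts in every library and 2 to 5 with each library left out. The 1 called lower became 0 to 3, with 3 without NC replicate 3 and 0 without ORF_Flag replicate 3. With the longest transcript as gene length, an alternative added after seeing the data, the ratio moved by more than the spread between replicates: EDN1 was 48.6% of ECE1 in NC and 69.4% in ORF_Flag, in place of 69.9% and 99.8%.

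With the replicate number as a block, 731 genes were called, and 5 pathway genes were called higher and 1 lower. The correlations of the deviations of libraries with the same number were 0.0666, 0.0266 and 0.0448. These small values cannot settle whether the numbers are pairs, and the fit reported above did not treat them as such. Whether same-numbered libraries share a batch was not tested. ORF_Flag replicate 2 correlated best with NC replicate 3 (0.0304), and the other 5 libraries with their own number, a hint from the data and not from the design.

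The 5 genes below 3 counts in each library allow no comparison at this depth, and the part of shared exons in the 0 of ECE2 was not tested.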
